A study of Rattus norvegicus with 16 samples.

Results

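The genes of the constitutive proteasome were followed across 5 ages in the liver of male Lewis rats, an inbred strain. Members were the genes whose array name begins with Psma, Psmb, Psmc or Psmd and a digit, leaving out the interferon-inducible subunits Psmb8, Psmb9 and Psmb10. The rule found 37 genes on 45 probes, among 35119 genes on 41012 probes of the array. They were 8 genes of the alpha ring, 8 of the beta ring, 6 ATPases and 11 non-ATPase subunits of the 19S particle, 3 assembly chaperones (Psmd5, Psmd9 and Psmd10) and Psmc3ip. Psmc3ip carries the name of a partner of Psmc3 but is a factor of meiotic recombination and no subunit of the proteasome. The groups were livers of 3, 9, 12, 18 and 24 months, with 3 arrays at each age and 4 at 24 months. All rats were of 1 sex and 1 strain, and the labels name no treatment. They do not say whether each array is a separate animal, so the p-values measure the spread between these samples, which may be technical.

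The 26S proteasome degrades proteins that carry ubiquitin chains. Its 20S core is a barrel of alpha and beta rings: the alpha subunits form the gate, and among the beta subunits Psmb5, Psmb6 and Psmb7 cut the substrate. The 19S particle caps the barrel. There Psmd4 binds the ubiquitin chain, Psmd14 cuts it off, and a ring of ATPases, Psmc1 to Psmc6, unfolds the substrate and feeds it into the core. When proteasome activity falls short, the transcription factor NRF1 (Nfe2l1) raises the genes of both particles together through antioxidant response elements in their promoters. In cells exposed to interferon gamma, Psmb8, Psmb9 and Psmb10 take the places of Psmb5, Psmb6 and Psmb7.

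Levels are given as log2 of the signal over the 75th percentile of its array, and differences between ages are on the same log2 scale. A gene was called when its limma adjusted p, over all 21478 genes tested, was under 0.05. Per array, 52.5% to 65.2% of probes lay well above background, and the 75th percentile was between 171 and 412 intensity units. All 10 hepatocyte markers, albumin among them, were measured, and their summed signal was 3819 to 5837 times the 75th percentile at 24 months, against 4998 to 5719 times at 3 months. The correlation across genes with arrays of the same age averaged lowest for 12 months replicate 2 (0.966) and 24 months replicate 3 (0.974). It was 0.975 to 0.982 for the other arrays of 24 and 12 months and 0.992 to 0.997 for those of 3, 9 and 18 months. The 16 arrays lay on 7 slides, scanned on 3 days in 2 sessions, and no batch held all ages. Neither slide, day nor session was common to the arrays of 18 months and those of 3 or 24 months, so batch and age cannot be told apart by direct comparison there. The arrays of 24 and 3 months shared a session, but no slide or day.

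Of the 37 members, 35 lay well above background on all 16 arrays. Psma8, the alpha subunit of the testis, and Psmb11, the beta subunit of the thymic cortex, lay above background on 0 of 16 arrays. Their processed signals were 1.65 to 7.23 and 2.13 to 4.55 intensity units, and they were not tested. The probes are 60 bases long, and 15 of the 35 used covered a stretch of the genome longer than themselves, so they lie across an intron. The probes of the 3 catalytic subunits, of the ubiquitin receptor and deubiquitinase, and of Psma2 and Psmd6, the members called lower at 24 against 18 months, are shown because the results turn on them. Their coordinates are those of the rn4 build in the file headers, and the sequences are the array's designed oligonucleotides.
Psmb5 (chr15:32690134-32690193, minus strand): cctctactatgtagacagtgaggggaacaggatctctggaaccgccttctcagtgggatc
Psmb6 (chr10:57371368-57371427, plus strand): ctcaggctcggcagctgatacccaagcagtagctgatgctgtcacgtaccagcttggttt
Psmb7 (chr3:18413231-18433105, minus strand): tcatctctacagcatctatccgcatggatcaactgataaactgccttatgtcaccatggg
Psmd4 (chr2:189933368-189933427, minus strand): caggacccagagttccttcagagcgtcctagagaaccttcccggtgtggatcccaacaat
Psmd14 (chr3:43696292-43699023, minus strand): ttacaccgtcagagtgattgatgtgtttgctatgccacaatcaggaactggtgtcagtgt
Psma2 (chr17:58736661-58738012, minus strand): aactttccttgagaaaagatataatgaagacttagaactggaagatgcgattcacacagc
Psmd6 (chr15:12660117-12660290, plus strand): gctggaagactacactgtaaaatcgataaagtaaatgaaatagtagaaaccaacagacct
The probe of Psmb7 spanned 19875 bases of the genome, that of Psmd14 2732, that of Psma2 1352 and that of Psmd6 174, so each of these crosses an exon junction. Those of Psmb5, Psmb6 and Psmd4 lie in 1 exon. The probes of Psma3, Psmb3, Psmb6 and Psmd12 list more than 1 RefSeq transcript, and a signal there may combine transcripts.

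**Figure D1:**
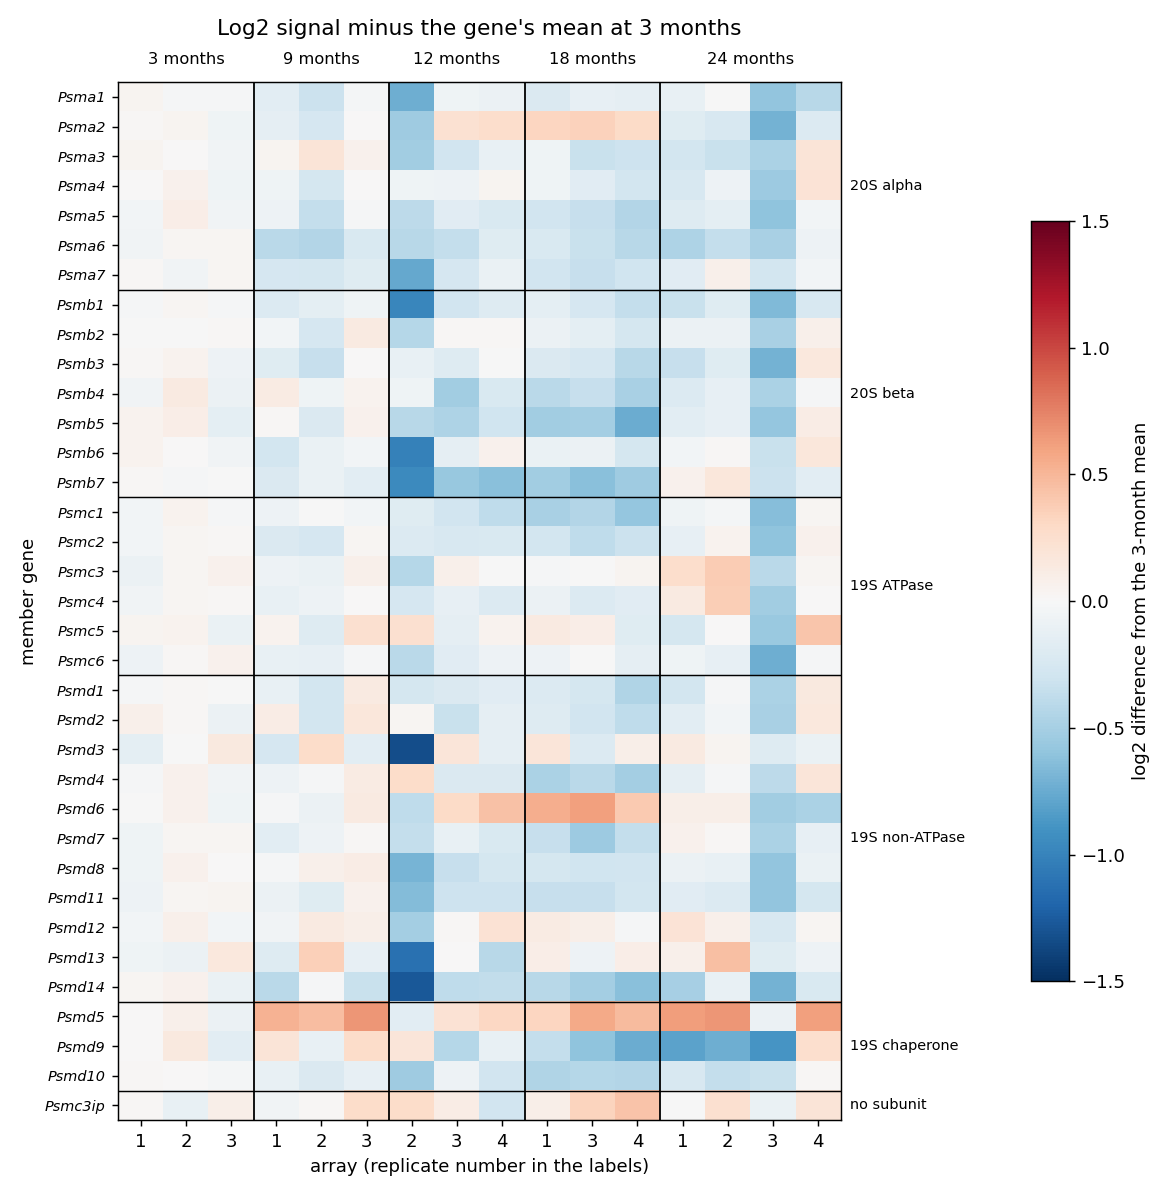
Each row is 1 of the 35 genes tested, ordered by role, and each column is 1 array, ordered by age and named by its replicate number. The colour is the log2 signal minus the gene's own mean at 3 months. The columns of 12 months replicate 2 and 24 months replicate 3 are low across most genes. Psma2 and Psmd6 are above their 3-month mean on all 3 arrays of 18 months and on 12 months replicates 3 and 4, which shared a scan session.

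Among the active sites, the chymotrypsin-like subunit Psmb5 and the trypsin-like subunit Psmb7 were called lower at 18 than at 3 months, and Psmb7 already at 12 months. The caspase-like subunit Psmb6 was called in no comparison of the fit to all arrays, though it was called lower at 18 against 3 months with scan day or session as a block. In those fits the link between the ages ran through the 12-month arrays. Among these, replicate 2 alone, where Psmb6 read lowest, was scanned with the 3-month arrays. Psmb7 had the smallest p over the ages of all members. Its log2 signal was 3.96, 3.93 and 3.93 at 3 months, 3.72, 3.84 and 3.78 at 9 months, 2.98, 3.38 and 3.32 at 12 months, 3.42, 3.31 and 3.41 at 18 months and 4.003, 4.11, 3.62 and 3.78 at 24 months. All 6 arrays of 12 and 18 months lay below all 10 arrays of the other ages. The limma F test over the 5 ages gave Psmb7 an adjusted p of 0.0033, and Psmb5 an adjusted p of 0.039. These were 2 of 35 members called for any age difference, where 37.4% of all genes were called. Psmb5 measured 5.63, 5.68 and 5.43 at 3 months, 5.59, 5.36 and 5.64 at 9 months, 5.17, 5.12 and 5.27 at 12 months, 5.05, 5.06 and 4.84 at 18 months and 5.42, 5.46, 5.0003 and 5.69 at 24 months. Its 18-month arrays lay below every array of 3, 9 and 12 months, and array 3 of 24 months was inside the span of those 18-month values. Psmb6 measured 3.66, 3.61 and 3.54 at 3 months, 3.33, 3.50 and 3.56 at 9 months, 2.59, 3.47 and 3.67 at 12 months, 3.50, 3.52 and 3.34 at 18 months and 3.56, 3.63, 3.27 and 3.78 at 24 months. Its lowest value was that of 12 months replicate 2, and the other arrays of that age lay within the range of 24 months.

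**Figure D2:**
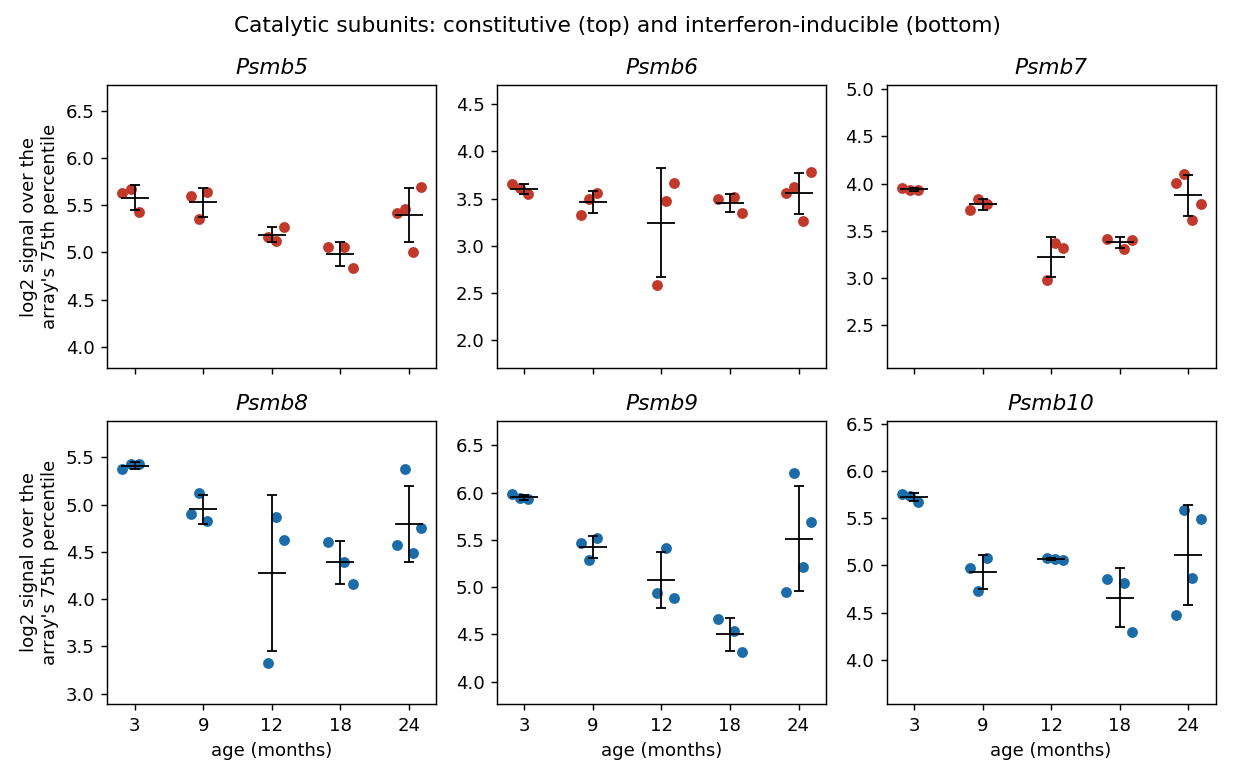
Log2 signal over the array's 75th percentile by age in months, with 1 point per array and the mean with its SD (n = 3, and n = 4 at 24 months). The top row holds the constitutive catalytic subunits and the bottom row the interferon-inducible ones that replace them, and all panels span the same number of log2 units. Psmb7 is lowest at 12 and 18 months, and Psmb9 averages 4.50 at 18 months against 5.95 at 3 months.

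The 4 other beta subunits tested, Psmb1, Psmb2, Psmb3 and Psmb4, are structural parts of the ring. They were called in no comparison. Psmb4 had the largest difference from 3 months among them at 18 months, 5.49 ± 0.07 against 5.90 ± 0.12 (SD, n = 3 each), a log2 difference of -0.41 (limma adjusted p = 0.058). For Psmb1 the widest gap was at 12 months, 3.73 ± 0.43 against 4.22 ± 0.03 at 3 months (SD, n = 3 each), where replicate 2 stood at 3.24. Psmb2 had age means between 5.91 and 6.08, and Psmb3 between 5.94 and 6.24.

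Among the alpha subunits, which form the gate of the core, Psma2 was the 1 with a higher mean at 18 than at 3 months. Its log2 signal was 3.74, 3.77 and 3.66 at 3 months, 3.59, 3.47 and 3.72 at 9 months, 3.19, 3.95 and 3.99 at 12 months, 4.05, 4.06 and 4.01 at 18 months and 3.54, 3.48, 3.02 and 3.51 at 24 months. The 18-month arrays were the highest 3 of the 16, and 24 months replicate 3 was the lowest. Next highest were 12 months replicates 3 and 4, which shared the scan session of the 18-month arrays. Every array of the other session lay below them, so age and session cannot be told apart here. Psma6 measured 6.78, 6.87 and 6.86 at 3 months, 6.44, 6.40 and 6.61 at 9 months, 6.42, 6.48 and 6.65 at 12 months, 6.60, 6.50 and 6.42 at 18 months and 6.37, 6.48, 6.35 and 6.76 at 24 months. All arrays of 9, 12, 18 and 24 months lay below the 3 arrays of 3 months. Psma7 measured 5.62, 5.55 and 5.64 at 3 months, 5.35, 5.33 and 5.42 at 9 months, 4.83, 5.35 and 5.50 at 12 months, 5.32, 5.25 and 5.31 at 18 months and 5.43, 5.68, 5.33 and 5.56 at 24 months. Its 9-, 12- and 18-month arrays lay below those of 3 months, and 1 of the 4 arrays of 24 months lay above them. Psma1, Psma3, Psma4 and Psma5 had ranges of age means of 0.29, 0.41, 0.17 and 0.36, with the lowest mean at 12 months for Psma1 and Psma3 and at 18 months for Psma4 and Psma5.

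The ATPase ring held 1 called member. Psmc1, whose tail helps to open the gate of the core, measured 5.78, 5.88 and 5.81 at 3 months, 5.75, 5.82 and 5.77 at 9 months, 5.64, 5.53 and 5.44 at 12 months, 5.34, 5.39 and 5.24 at 18 months and 5.76, 5.79, 5.18 and 5.85 at 24 months. The 18-month arrays lay below all arrays of 3, 9 and 12 months, and 24 months replicate 3 lay below them all. The other ATPases were called in no comparison. The ranges of their age means were 0.33 for Psmc2, 0.19 for Psmc3, 0.19 for Psmc4, 0.15 for Psmc5 and 0.23 for Psmc6.

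In the rest of the 19S particle, the ubiquitin receptor Psmd4 measured 4.82, 4.89 and 4.78 at 3 months, 4.76, 4.81 and 4.95 at 9 months, 5.11, 4.62 and 4.62 at 12 months, 4.36, 4.43 and 4.33 at 18 months and 4.69, 4.82, 4.44 and 5.01 at 24 months. The 18-month arrays lay below those of every other age. The deubiquitinase Psmd14 measured 1.68, 1.71 and 1.55 at 3 months, 1.25, 1.63 and 1.31 at 9 months, 0.37, 1.27 and 1.27 at 12 months, 1.23, 1.14 and 1.02 at 18 months and 1.15, 1.53, 0.94 and 1.42 at 24 months. Here 12 months replicate 2 was the lowest, and every array of 12, 18 and 24 months lay below the 3 arrays of 3 months. Psmd7, which pairs with Psmd14 in the lid, measured 3.52, 3.62 and 3.61 at 3 months, 3.42, 3.51 and 3.60 at 9 months, 3.23, 3.48 and 3.36 at 12 months, 3.24, 3.04 and 3.22 at 18 months and 3.64, 3.61, 3.10 and 3.46 at 24 months. Its 18-month arrays lay below those of 3 and 9 months.

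Psmd6, a lid subunit, had its highest age mean at 18 months. Its log2 signal was 1.11, 1.18 and 1.06 at 3 months, 1.10, 1.03 and 1.25 at 9 months, 0.73, 1.40 and 1.56 at 12 months, 1.66, 1.73 and 1.51 at 18 months and 1.21, 1.21, 0.60 and 0.64 at 24 months. The 18-month arrays lay above those of 3, 9 and 24 months. So did 12 months replicates 3 and 4, which shared their scan session, while 12 months replicate 2, of the other session, did not. Psmd11, the lid subunit that clamps the particle to the core, measured 3.14, 3.25 and 3.26 at 3 months, 3.13, 3.03 and 3.28 at 9 months, 2.56, 2.90 and 2.90 at 12 months, 2.87, 2.87 and 2.94 at 18 months and 3.05, 3.01, 2.63 and 2.95 at 24 months. Every array of 12, 18 and 24 months was below the 3-month arrays. The lid subunit Psmd8 measured 3.90, 4.03 and 3.98 at 3 months, 3.96, 4.04 and 4.08 at 9 months, 3.27, 3.63 and 3.71 at 12 months, 3.71, 3.67 and 3.69 at 18 months and 3.88, 3.87, 3.39 and 3.87 at 24 months. Its 12-, 18- and 24-month arrays lay below those of 3 and 9 months. Psmd13, also of the lid, measured 1.04, 1.02 and 1.26 at 3 months, 0.91, 1.47 and 0.98 at 9 months, -0.01, 1.12 and 0.69 at 12 months, 1.21, 1.03 and 1.21 at 18 months and 1.19, 1.56, 0.93 and 1.03 at 24 months. Array 2 of 12 months was the lowest, and the next lowest was at 0.69.

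Of the other subunits of the particle, Psmd1 and Psmd2 are the large scaffold proteins of its base and Psmd3 and Psmd12 belong to the lid. They were called in no comparison. Psmd1 had its lowest age mean at 18 months, 6.44 ± 0.13, against 6.75 ± 0.02 at 3 months (SD, n = 3 each). Psmd2 averaged 6.11 ± 0.09 at 18 months and 6.40 ± 0.08 at 3 months (SD, n = 3 each). The age means of Psmd3 spanned 0.45 and those of Psmd12 spanned 0.15, both lowest at 12 months.

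The chaperones that build the ATPase ring did not share 1 course. Psmd10 (gankyrin) measured 2.10, 2.09 and 2.06 at 3 months, 1.97, 1.86 and 1.96 at 9 months, 1.55, 2.003 and 1.79 at 12 months, 1.63, 1.66 and 1.65 at 18 months and 1.85, 1.72, 1.75 and 2.11 at 24 months. The 18-month arrays lay below those of 3, 9 and 24 months. Psmd5 measured 0.90, 0.97 and 0.80 at 3 months, 1.42, 1.35 and 1.55 at 9 months, 0.73, 1.11 and 1.21 at 12 months, 1.21, 1.46 and 1.37 at 18 months and 1.52, 1.55, 0.81 and 1.51 at 24 months. Its 9- and 18-month arrays lay above the 3-month arrays, and so did 3 of the 4 arrays of 24 months. Psmd9 averaged 4.86 ± 0.20 at 18 months and 5.43 ± 0.15 at 3 months (SD, n = 3 each), and at 24 months 3 arrays lay between 4.54 and 4.69 and replicate 4 at 5.68. Psmc3ip had age means between -0.97 and -0.68 and was called in no comparison.

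The comparison of 18 with 3 months held the most called members. Of 35, 5 were lower and 0 higher, where 11.9% of all genes were called lower, 11.3% higher and 23.3% in all. Psmb7 was 1.48-fold lower (3.38 ± 0.06 against 3.94 ± 0.02, SD, n = 3 each, adjusted p = 0.012). Psmb5 was 1.51-fold lower (4.98 ± 0.13 against 5.58 ± 0.13, SD, n = 3 each, adjusted p = 0.018). Psmd10 was 1.36-fold lower (adjusted p = 0.029), Psmc1 1.42-fold lower (adjusted p = 0.032) and Psmd7 1.34-fold lower (adjusted p = 0.0496). In these bulk samples, fewer cells of a type and less RNA per cell cannot be told apart.

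The call of Psmd7 rested on 1 of its 3 probes, whose adjusted p was 0.052 when the adjustment ran over probes. The other 2 had log2 differences of 0.0059 and -0.0081. Of the 7 members with several probes above background, Psmc4 (-0.15 and 0.03) and Psmc6 (-0.07 and 0.05) also had probes of opposite sign in this comparison, the value of the probe used standing first. Opposite signs occurred for 5 of the 7 at 24 against 18 months and at 18 against 12 months. Below the threshold, Psmd4 was at -0.46 (adjusted p = 0.051), Psmd14 at -0.52 (adjusted p = 0.11) and Psmb6 at -0.15 (adjusted p = 0.67). The 95% interval of Psmb6 was -0.63 to 0.33. These 3 depended on the setting. With scan day or session as a block, where the 12-month arrays alone link 18 to 3 months and replicate 2 is the 1 of them scanned with the 3-month arrays, Psmb6 was at -1.13 (adjusted p = 0.013), Psmd14 at -1.42 (adjusted p = 0.011) and Psmd4 at 0.029 (adjusted p = 0.95). Psmd4 was called lower under 7 alternatives (adjusted p = 0.0038 to 0.042), and Psmd14 under 4, among them the fit on these ages alone (adjusted p = 0.0051). Psmd6 and Psma2 stood at 0.51 and 0.32 (adjusted p = 0.10 and 0.27).

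Over all members tested, the median difference between 18 and 3 months was -0.28, where it was -0.05 over all genes. There were 26 members below 0, where 54.1% of all genes were. The arrays of the ages did not overlap for 24 members that were lower, where 33.1% of all genes did so, and for 3 that were higher (Psma2, Psmd5 and Psmd6), where 27.7% did. By role, 7 of 7 beta subunits were lower with no overlap, 5 of 7 alpha subunits, 3 of 6 ATPases, 7 of 11 non-ATPase subunits and 2 of 3 chaperones. The median differences were -0.29 for the beta ring, -0.24 for the alpha ring, -0.11 for the ATPases and -0.29 for the non-ATPase subunits. None of the 35 differed by 2-fold or more, as 15.4% of all genes did, and for 33 the 95% interval lay within 2-fold either way.

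The number called depended on the arrays in the fit. Leaving out 1 of the 6 arrays left 1 call without 3 months replicate 1, 3 months replicate 2 or 18 months replicate 4, and 2 calls without any 1 of the other 3, with 3221 to 3656 of all genes. Psmb7 was called in each of these 6 fits (limma adjusted p = 0.030 to 0.048), and its log2 difference was -0.58 to -0.53. A fit on the arrays of the 2 ages alone called 22 members, 19 of them lower, and 10089 of all genes. Without 12 months replicate 2 and 24 months replicate 3 together, which belong to neither age, it was 18 members, 15 of them lower, and 7446 of all genes. Slide as a random block, with an estimated correlation of 0.687 within a slide, left 0 members and 264 genes called. Slide 4 carried the whole 18-month group and slide 1 the whole 3-month group. The fit to all arrays took arrays of the same slide as independent, so its p-values for these ages do not cover the spread between slides.

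**Figure D3:**
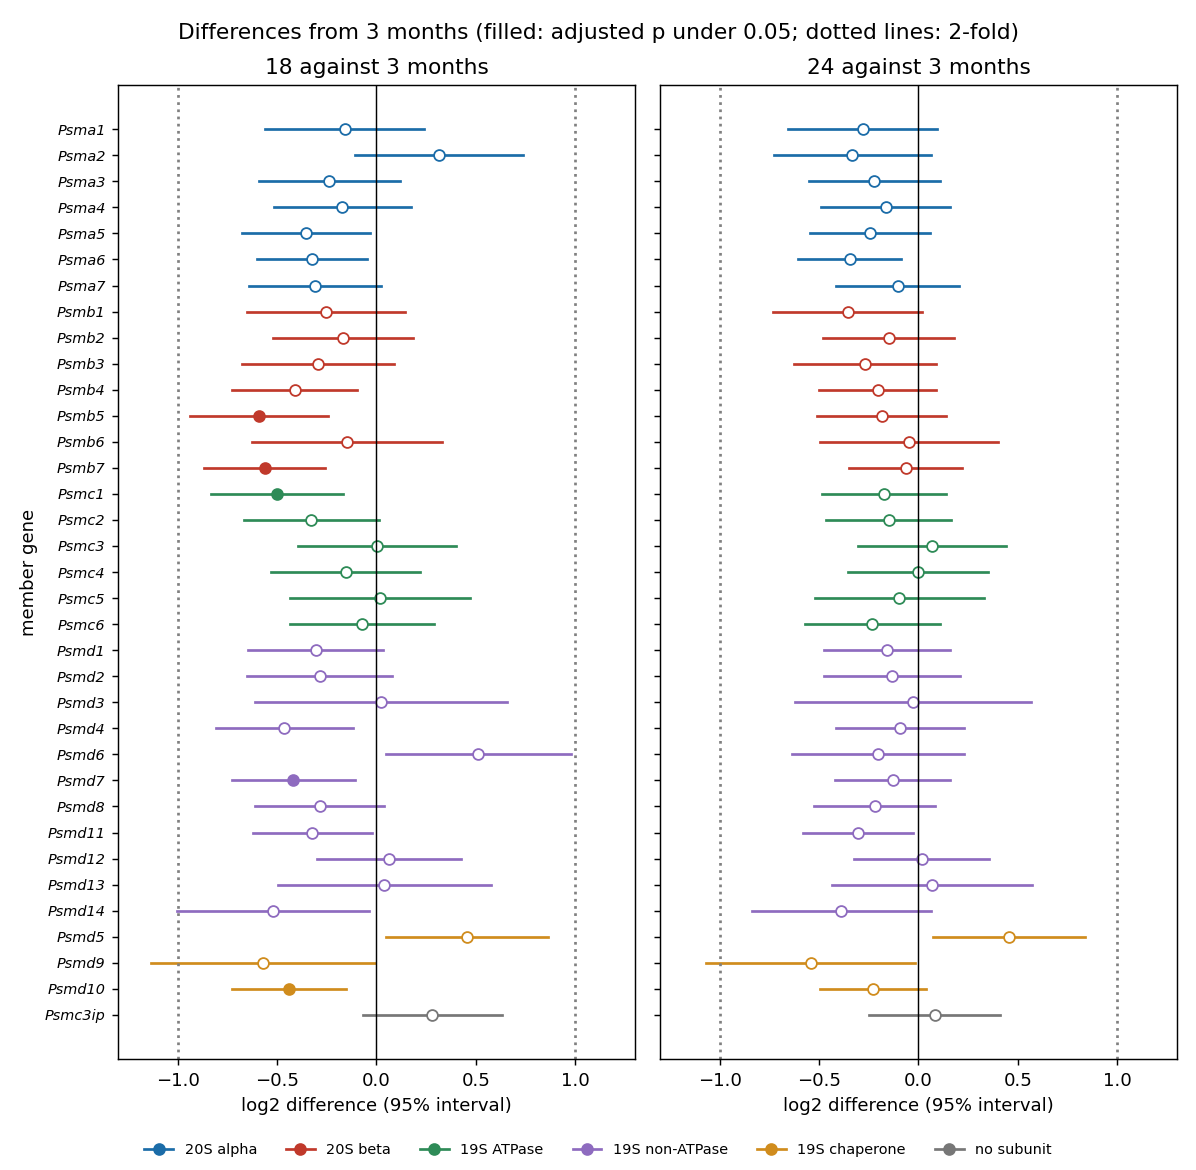
Log2 differences of the 35 genes with their 95% intervals, for 18 against 3 months on the left and 24 against 3 months on the right, ordered and coloured by role. Filled points are called (adjusted p under 0.05) and dotted lines mark 2-fold. Psmb5, Psmb7, Psmc1, Psmd7 and Psmd10 are called lower at 18 months, and the right panel holds no filled point.

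The widest span, 24 against 3 months, held 0 called members of 35, where 13.3% of all genes were called, and 4 members at an unadjusted limma p under 0.05, where 26.8% of all genes were. These were Psma6, Psmd5, Psmd11 and Psmd9. Psma6 averaged 6.49 ± 0.19 at 24 months (SD, n = 4), against 6.84 ± 0.05 at 3 months (SD, n = 3) (log2 difference -0.35, adjusted p = 0.077). Psmd5 averaged 1.35 ± 0.36 against 0.89 ± 0.08 at these ages (0.46, adjusted p = 0.11), and Psmd11 differed by -0.30 (adjusted p = 0.15). The active sites had differences of -0.19 for Psmb5, -0.05 for Psmb6 and -0.06 for Psmb7 (adjusted p = 0.48, 0.92 and 0.81). Their 95% intervals were -0.51 to 0.14, -0.50 to 0.40 and -0.35 to 0.22. Psmd4 differed by -0.09 and Psmd14 by -0.39 (adjusted p = 0.75 and 0.26).

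The median over the 35 members was -0.16 for 24 against 3 months, where it was -0.04 over all genes, and 30 members were below 0, where 54.4% of all genes were. For 6 members the 24-month arrays all lay below the 3-month arrays, where 16.4% of all genes did so. None differed by 2-fold, where 10.4% of all genes did, and 34 had 95% intervals within 2-fold. Without array 3 of 24 months the median was -0.05, the differences of Psmb6, Psmb7 and Psmd4 turned to 0.050, 0.0225 and 0.0067, and Psmd5 alone was called, higher by 0.64 (adjusted p = 0.0067), with 3132 of all genes. Without replicate 4 there were 2 calls, both lower, with Psma6 at -0.43 (adjusted p = 0.018) and 3357 of all genes called. Without both there were 3 calls, 1 higher and 2 lower, with 3221 of all genes.

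In the fit to all arrays, the active-site subunit Psmb7 was called higher at 24 than at 18 months, and the lid subunit Psmd6 and the alpha subunit Psma2 lower. The arrays of 24 and 18 months shared no slide, day or session, so age and batch cannot be told apart. Psmb7 was 1.41-fold higher (3.88 ± 0.22, SD, n = 4, against 3.38 ± 0.06, SD, n = 3, adjusted p = 0.013). Psmd6 was 1.64-fold lower (0.91 ± 0.34, SD, n = 4, against 1.63 ± 0.11, SD, n = 3, adjusted p = 0.018). Psma2 was 1.57-fold lower (3.39 ± 0.25, SD, n = 4, against 4.04 ± 0.03, SD, n = 3, adjusted p = 0.019). These were 3 of 35 members, where 25.8% of all genes were called, 10.8% higher and 15% lower. Psmb5 and Psmd4 differed by 0.41 and 0.37 (adjusted p = 0.063 and 0.086), Psmd14 by 0.13 and Psmb6 by 0.10 (adjusted p = 0.69 and 0.76).

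Over the members the median was 0.03 for 24 against 18 months, against 0.05 for all genes. Without 24 months replicate 3 it was 0.18, and 9 members were called, 7 of them higher, with 5252 of all genes. With normexp background correction it was -0.17, and with scan session as a block 0.35. There was 1 call without 18 months replicate 1, where 4022 of all genes were called, and there were 0 without 18 months replicate 3, where 3893 of all genes were called. With scan session as a block Psmd6 and Psma2 were at 0.031 and 0.13, so their direction turned, and 5 members were called, all higher, with 2802 of all genes. With slide as a random block 0 members were called, and 971 genes.

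For 12 against 3 months the 1 called member was Psmb7, 1.64-fold lower (3.23 ± 0.21 against 3.94 ± 0.02, SD, n = 3 each, adjusted p = 0.0072), where 10.7% of all genes were called and 5.2% were lower. Next by p were Psmd11 at -0.43 (adjusted p = 0.066) and Psmd14 at -0.68 (adjusted p = 0.070). Psmb5 was at -0.39, Psmb6 at -0.36 and Psmd4 at -0.05 (adjusted p = 0.14, 0.32 and 0.88). The median over the members was -0.23, against 0.02 over all genes, and 17 members were lower with no overlap, where 17.3% of all genes were. Psmb7 was called without any 1 of the 6 arrays (adjusted p = 0.0090 to 0.033), with a difference of -0.79 to -0.59. Without 12 months replicate 3 there were 2 calls, with 2306 of all genes.

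The 12-month arrays lay in 2 scan sessions, replicate 2 with the arrays of 3, 9 and 24 months and replicates 3 and 4 with those of 18 months. In the fits within a scan day or session, and in those with either as a block, replicate 2 alone set the 12-month level against that of 3 months. Within the first scan day, where replicate 2 stood alone for its age and was assumed to vary like the other ages, 17 members were called lower than at 3 months, and 8555 of all genes were called. Within scan session 1 it was 9 members and 3924 genes. With scan day or session as a block it was 11 members and 5091 genes.

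In the neighbouring step, 12 against 9 months, Psmb7 was again the 1 called member, 1.47-fold lower (3.23 ± 0.21 against 3.78 ± 0.06, SD, n = 3 each, adjusted p = 0.036), where 6.28% of all genes were called and 3.1% were lower. Psmd8 was at -0.49 and Psmd11 at -0.36 (adjusted p = 0.072 and 0.14). The differences of Psmb5, Psmb6, Psmd14 and Psmd4 were -0.35, -0.22, -0.43 and -0.06 (adjusted p = 0.22, 0.60, 0.28 and 0.88). The call of Psmb7 was lost without 9 months replicate 1, 2 or 3 or 12 months replicate 2 or 4 (adjusted p = 0.058 to 0.11). The median of the members was -0.15, against -0.01 over all genes, and 8 were lower with no overlap, as 12.7% of all genes were. On slide 2, which held 9 months replicates 1 and 3 and 12 months replicate 2, 3 members were called lower, with 3110 of all genes, and the median was -0.43. With slide as a fixed block, 18 members were called lower, and 5835 of all genes were called. Within scan day 1 it was 14 members and 7403 genes, and within scan session 1 it was 7 members and 3298 genes. In these fits the 12-month level was set against that of 9 months through 12 months replicate 2 alone, on which 26 of 35 members lay below their mean, and the spread came from other arrays.

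Between 9 and 3 months, 0 of 35 members were called, where 5.14% of all genes were, and 2 had an unadjusted limma p under 0.05, where 18.1% of all genes did. These were Psmd5, 1.44 ± 0.10 against 0.89 ± 0.08 (SD, n = 3 each, log2 difference 0.55, adjusted p = 0.13), and Psma6, 6.48 ± 0.11 against 6.84 ± 0.05 (SD, n = 3 each, -0.35, adjusted p = 0.15). Psma7 followed at -0.23 (adjusted p = 0.49). The differences of Psmb5, Psmb6, Psmb7, Psmd14 and Psmd4 were -0.05, -0.14, -0.16, -0.25 and 0.01 (adjusted p = 0.94, 0.84, 0.65, 0.65 and 0.99). Every 95% interval of the 35 lay within 2-fold. On slide 1, which held all arrays of 3 months and 1 of 9 months, and with slide as a fixed block, 0 members were called, with 3683 and 1889 of all genes. Within scan day 1 it was 2 of the members, Psmd5 higher and Psma6 lower (adjusted p = 0.011 and 0.042), and 4125 of all genes.

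Between 18 and 12 months 0 of 35 members were called, where 1.39% of all genes were, and 2 had an unadjusted limma p under 0.05, where 18.3% of all genes did. Psmd4 was at -0.41 and Psmd13 at 0.55 (adjusted p = 0.21 and 0.27), followed by Psmd6 at 0.40 (adjusted p = 0.33). For the active sites the differences were -0.20 for Psmb5, 0.21 for Psmb6 and 0.15 for Psmb7 (adjusted p = 0.51, 0.62 and 0.57), and Psmd14 was at 0.16 (adjusted p = 0.72). The 2 arrays of 12 months that shared scan day 3 with the 18-month arrays also gave 0 calls. The median over the members was 0.06, against -0.06 over all genes, and -0.05 without 12 months replicate 2.

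On 24 months replicate 3 the median deviation of the 35 members from their own means over the 16 arrays was -0.37, and 35 of 35 lay below their mean, where the median over the genes above background on all arrays was -0.08 and 58.6% of them lay below their mean. On 12 months replicate 2 it was -0.31, with 26 of 35 members below their mean, where all genes had 0.07 and 44.8% of them lay below. The 3 arrays of 18 months were at -0.03, -0.12 and -0.15, with all genes at -0.05 on each, and 22, 25 and 27 of 35 members lay below their mean, where 56.3% to 57% of all genes did. The 3 arrays of 3 months were at 0.12, 0.17 and 0.12, against -0.01, 0.0037 and -0.03 for all genes. The ranges of 18 and 3 months did not overlap in this median. The median SD between arrays of an age, pooled over the ages, was 0.19 on the log2 scale for the members, where the 16565 genes above background on all arrays had 0.24. By age it was 0.06, 0.12, 0.23, 0.09 and 0.27 for the members at 3, 9, 12, 18 and 24 months. Those genes had 0.08, 0.15, 0.29, 0.13 and 0.26. The fit to all arrays pooled the spread, so 18 against 3 months was judged partly by the wider spread of 12 and 24 months.

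**Figure D4:**
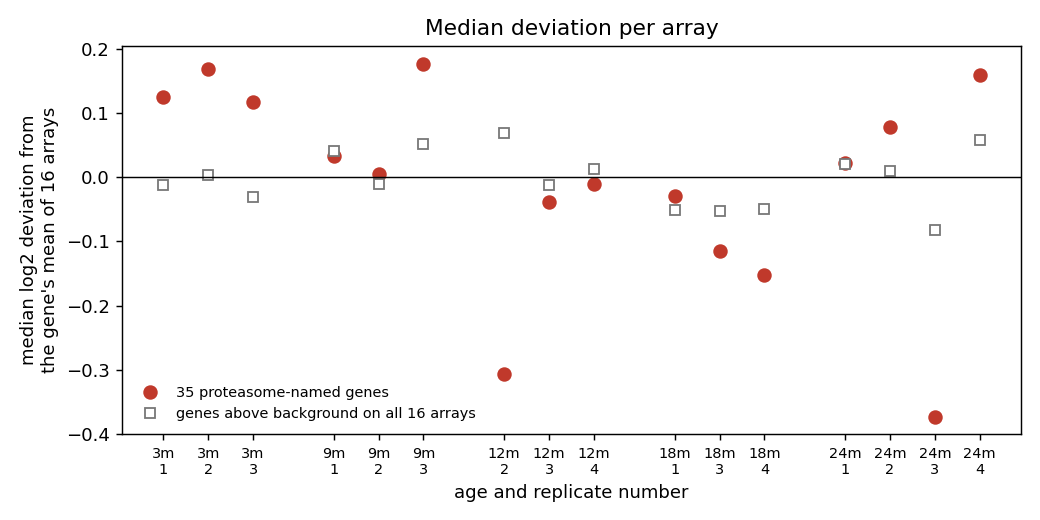
Median log2 deviation from each gene's mean over the 16 arrays, for the 35 proteasome-named genes (filled circles) and for the genes above background on all 16 arrays (open squares), by array. Array 3 of 24 months and array 2 of 12 months are lowest for the proteasome-named genes, at -0.37 and -0.31.

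The interferon-inducible subunits, which are no members, were lower than at 3 months in 2 of 3 cases at 12 months and in 3 of 3 at 18 months. At 12 against 3 months Psmb8 was 2.20-fold lower (adjusted p = 0.040) and Psmb9 1.83-fold lower (adjusted p = 0.045), and at 18 against 12 months 0 of 3 were called. Psmb8 read 3.33 on 12 months replicate 2, 4.87 on replicate 3 and 4.63 on replicate 4, against 5.37 to 5.44 at 3 months. Its fold thus leaned on replicate 2. At 18 against 3 months all 3 were lower: Psmb9 by 2.73-fold (4.50 ± 0.17 against 5.95 ± 0.03, SD, n = 3 each, adjusted p = 0.0014), Psmb10 by 2.09-fold (adjusted p = 0.0078) and Psmb8 by 2.04-fold (adjusted p = 0.036). Psmb9 and Psmb10 were called in the F test (adjusted p = 0.0057 and 0.034). At 24 against 3 months 0 of 3 were called, with a median difference of -0.61. At 24 against 18 months Psmb9 was 2.01-fold higher (adjusted p = 0.0070). Whether they changed by more than Psmb5, Psmb6 and Psmb7 was not tested.

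Among 5 activators and inhibitors of the core, Psmf1, the inhibitor PI31, was lower at 24 months, 3.16 ± 0.43 (SD, n = 4) against 3.85 ± 0.02 (SD, n = 3) at 3 months, a 1.62-fold difference (limma adjusted p = 0.033). Psme2, a subunit of the interferon-inducible cap PA28, was called in the F test (adjusted p = 0.0097) and averaged 4.37 ± 0.11 at 18 months and 5.03 ± 0.06 at 3 months (SD, n = 3 each). Psme1, its partner, read -7.20 on 3 months replicate 3, against 5.38 and 5.34 on the other arrays of that age, so its differences from 3 months are not given. Of the 4 chaperones of core assembly, Psmg1 was called in the F test (adjusted p = 0.040), where 37.4% of all genes were, and 0 of 4 were called at 24 or 18 against 3 months. Among 11 other proteins that bind the 19S particle, 0 were called at 24 against 3 months or in the F test. Of these 11, 1 was higher and 2 were lower at 18 against 3 months, where 11.3% and 11.9% of all genes were.

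Of 8 tested genes that regulate proteasome transcription, which do not include Nfe2l1, Maff and Fbxw7, Nfe2l2 (NRF2) alone was called in the F test (adjusted p = 0.015), where 37.4% of all genes were. It averaged 4.43 ± 0.09 at 9 months, against 3.46 ± 0.04 at 3 months (SD, n = 3 each, adjusted p = 0.020), and 0 of the 8 were called at 24, 18 or 12 against 3 months. Among 13 ubiquitin genes and conjugating enzymes, 0 were called at 24 against 3 months and 4 in the F test, where 13.3% and 37.4% of all genes were. These were the main activating enzyme Uba1 (adjusted p = 0.013), the second one, Uba6 (adjusted p = 0.034), and the conjugating enzymes Ube2r2 (adjusted p = 0.016) and Ube2l3 (adjusted p = 0.049). Uba1 averaged 2.13 ± 0.11, 2.16 ± 0.14, 1.60 ± 0.13 and 1.67 ± 0.05 (SD, n = 3 each) at 3, 9, 12 and 18 months and 2.14 ± 0.26 (SD, n = 4) at 24 months. Of 7 tested genes of the p97 segregase, which pulls ubiquitinated proteins out of complexes, Nsfl1c was called in the F test (adjusted p = 0.049), and 0 were called at 24, 18 or 12 against 3 months.

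Markers of blood-derived and stromal cells also differed between ages. At 9 against 3 months 6 of 10 T and NK cell, 3 of 6 neutrophil, 2 of 7 endothelial and 1 of 7 stellate cell markers were called lower. Of 9 macrophage markers 2 were higher and 2 lower, and 1 of 10 hepatocyte and 1 of 5 cholangiocyte markers were higher. The T and NK cell sum, in multiples of the 75th percentile, was 3.65 to 4.20 at 9 months, against 13.2 to 15.4 at 3 months, and the neutrophil sum was 1.19 to 1.59 against 15.8 to 18.5. At 12 against 3 months 3 of 10 T and NK cell, 3 of 6 neutrophil, 2 of 7 endothelial and 2 of 7 stellate cell markers were lower. Of 9 macrophage markers 2 were higher and 2 lower there. At 18 against 3 months 6 of 10 T and NK cell markers, 3 of 6 neutrophil markers and 4 of 7 stellate cell markers were called lower and 0 of them higher. The summed signal of the T and NK cell markers, in multiples of the 75th percentile, was 3.89 to 4.57 at 18 months, against 13.2 to 15.4 at 3 months. That of the neutrophil markers was 1.62 to 3.99 against 15.8 to 18.5, and that of the stellate cell markers 15.4 to 18.3 against 39.3 to 45.5. For the hepatocyte markers it was 5317 to 5616 at 18 months, against 4998 to 5719 at 3 months, with 1 of 10 called lower. Of the macrophage markers 3 of 9 were called higher and 2 lower, of the endothelial markers 2 of 7 lower, of the cholangiocyte markers 1 of 5 lower, and of the B cell and erythroid markers 0 of 3 each. At 24 against 18 months 10 of 10 T and NK cell markers were called higher, and their sum was 12.2 to 32.2 at 24 months, against 3.89 to 4.57 at 18 months. In that comparison 6 of 9 macrophage, 4 of 5 cholangiocyte and 2 of 7 endothelial markers were also higher. Of 7 stellate cell markers 2 were higher and 1 lower, and of 3 B cell markers 1 was higher and 1 lower. Of 6 neutrophil markers 1 was called lower, but the median difference of the 6 was 1.06. The neutrophil sum was 1.69 to 51.3 at 24 months, against 1.62 to 3.99 at 18 months. At 24 against 3 months 4 of 9 macrophage markers were higher and 1 lower, and of 10 T and NK cell markers 2 were higher and 1 lower. Of 7 endothelial markers 2 were higher and 1 lower, and 1 of 5 cholangiocyte markers was higher. Lower were 3 of 6 neutrophil and 3 of 7 stellate cell markers. The part of these cells in the differences of the proteasome genes was not tested.

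Promoter sequences of 32 members, all but Psma7, Psmb11, Psmd6, Psmd12 and Psmd14, were matched by symbol in RefSeq's GRCr8 assembly, as 250 bases before to 50 after the start of the gene. The core of the antioxidant response element, TGACNNNGC, searched on both strands with no other motif searched, occurred in 7 of these (21.9%) and in 3342 of 27457 promoters of the same length (12.2%). The 7 were Psma3, Psmb2, Psmb5, Psmb6, Psmd1, Psmd3 and Psmd9. The windows of the 3 beta subunits are shown because they hold 2 of the 3 active-site genes, in the direction of the gene, with the match in capitals.
Psmb2 (chr5:144254970-144255018, plus strand): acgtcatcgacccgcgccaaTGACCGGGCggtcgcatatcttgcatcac
Psmb5 (chr15:32047411-32047459, minus strand): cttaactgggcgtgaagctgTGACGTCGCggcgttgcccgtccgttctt
Psmb6 (chr10:55737844-55737892, plus strand): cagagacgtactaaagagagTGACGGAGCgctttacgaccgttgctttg
A match is a description of the sequence and not a site of binding. Leaving out Psmc3ip, the tested members with and without a match had median differences between 18 and 3 months of -0.24 (n = 7) and -0.29 (n = 23). Psmb5 was called at 18 months and holds a match, and Psmb6 holds one and was not called. Psmb7 was called and has no match in its window.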

How the data were processed

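Total RNA of liver was hybridised to a single-colour Agilent rat array. The labelling kit named in the labels is one for microRNA, which was not resolved. Per the file headers, signals, local backgrounds and spot flags (a column of another kind, other) came from Feature Extraction 10.7.3.1, with probe positions on rn4. The deposited intensity values are not normalized between arrays. The authors' deposited series table holds log2 values normalized in a way not given in the sources used here and served as an alternative.

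Processed signals were taken to log2 and each array's 75th percentile was subtracted. Spots with outlier flags were left out and spots of a probe averaged. Probes were kept where some age had every array above background (25682 of 41012, with 0 saturated spots), named through RefSeq accessions (18028 probes) or else by the array's name, and the probe with the highest mean stood for its gene. A mean per age was fitted to all genes and 16 arrays with limma 3.58.1 (R 4.3.3, data.table version 1.17.8), two-sided, with Benjamini-Hochberg adjustment over all 21478 genes. The procedure was tested on simulated data with independent noise, the same spread at every age and no batch effect. It therefore does not cover unequal spreads or batches. Tables were handled in Python 3.11.15 (pandas 2.3.3) and plotted through matplotlib 3.10.9. The number of arrays limits the precision.

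Members and lists were chosen with earlier results of these data known. Genes were named by rule: members called in a comparison, or the 3 with the smallest p where fewer than 3 were called, always Psmb5, Psmb6, Psmb7, Psmd4 and Psmd14, and pathway genes called at 24 against 3 months or in the F test. Psme1 and the immunoproteasome and Psme2 values at other ages were chosen after their values were seen. Alternatives covered the scaling, background correction, filter, probe, batch, replicate number and arrays used. Fits within a scan day or session, the second brightest probe and the joint removal of 12 months replicate 2 and 24 months replicate 3 were added after seeing the data.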

Additional observations from a re-analysis of the deposited data

Results flagged for a closer look

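Among the 4 arrays of 24 months, 6 of the 35 members tested had 1 array separated from the nearest other by more than Dixon's 95% critical value of 0.829 of the range. Chance gives about 1 such separation in 20 groups, and genes of 1 array are not independent. In 5 of the 6 the array was replicate 3, at the low end. There Psmd8, a lid subunit, read 3.39 with the next array at 3.87, and the assembly chaperone Psmd5 read 0.81 with the next at 1.51. The alpha subunit Psma2 read 3.02 with the next at 3.48, Psmc1 read 5.18 with the next at 5.76, and Psmc6 read 3.91 with the next at 4.51. In the sixth, the chaperone Psmd9 read 5.68 on replicate 4, at the high end, with the next array at 4.69. Replicate 3 lay alone for its age on slide 6 and replicate 4 on slide 7, so slide and sample cannot be told apart.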

How the results depend on the processing

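The counts of members called moved with the setting, and so did the counts over all genes. The latter ran 264 to 10089 for 18 against 3 months, and the ranges of every comparison close this section. For 24 against 3 months the main count of members was 0, with 0 to 2 when 1 array was left out, 1 with the 75th percentile over probes above background, 1 without 12 months replicate 2 and 24 months replicate 3 together, and 3 without 24 months replicates 3 and 4. For 18 against 3 months it was 5, with 1 to 2 when 1 array was left out, 0 with normexp, 0 with slide as a random block, 2 with no filter, 1 with a fold of at least 1.5, 22 on the compared ages alone and 18 without the pair of arrays of 12 and 24 months. For 12 against 3 months it was 1, with 1 to 2 when 1 array was left out, 0 with normexp, 3 with quantile normalization, 3 with the series table, 2 with the 75th percentile over probes above background, 3 with slide as a random block, 11 with scan day or session as a block, 17 within scan day 1, 9 within scan session 1 and 3 without the pair. For 9 against 3 months it was 0, with 0 when 1 array was left out, 1 with quantile normalization or the series table, 2 on the compared ages alone or within scan day 1, and 1 without the pair. For 12 against 9 months it was 1, with 0 to 1 when 1 array was left out, 0 with normexp, the series table, no filter, a fold of at least 1.5 or the compared ages alone, 11 and 18 with slide as a random and a fixed block, 10 with scan day or session as a block, 3 within slide 2, 14 within scan day 1, 7 within scan session 1 and 4 without the pair. For 18 against 12 months it was 0 under all 24 alternatives run. For 24 against 18 months it was 3, with 0 to 9 when 1 array was left out, 0 with normexp or slide as a random block, 5 with scan session as a block, 5 without 24 months replicates 3 and 4 and 10 without the pair. For the F test it was 2, with 1 to 7 when 1 array was left out, 6 with quantile normalization or the series table, 4 with the 75th percentile over probes above background, 0 with normexp, 1 with no filter, 5 with slide as a random block, 10 with scan session as a block, 8 without 24 months replicates 3 and 4 and 13 without the pair.

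Replicate numbers were taken as names alone. Arrays of the same number had a median correlation of deviations of -0.09 (25 pairs, -0.37 to 0.18) and those of different numbers 0.03 (77 pairs, -0.355 to 0.32). These ranges overlap, so a weak link between arrays of the same number could not be seen. With the replicate block 2 members were called for 18 against 3 months, 0 for 12 against 9, 1 for 24 against 18 and 1 in the F test. The counts over all genes with this block lie within the ranges that close this section.

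Directions turned for Psmb7 at 24 against 3 months without 24 months replicates 3 and 4 (0.11), for Psmb6, Psmb7 and Psmd4 there without 24 months replicate 3, alone or with 12 months replicate 2 (0.050, 0.0225 and 0.0067, with ranges when 1 array was left out of -0.12 to 0.050, -0.14 to 0.0225 and -0.18 to 0.0067), for Psmd4 at 18 against 3 months with scan day or session as a block (0.029), for Psmd7 there with its second probe (0.0059), and for Psmd6 and Psma2 at 24 against 18 months with scan session as a block (0.031 and 0.13). At 18 against 3 months Psmb6 and Psmd14 moved to -1.13 and -1.42 and were called with scan day or session as a block. Causes were not tested. The median over the members stayed below 0 for 24, 18, 12 and 9 against 3 months and 12 against 9 months under every alternative run, between -0.47 and -0.17 for 18 against 3 months. It changed sign for 18 against 12 months (0.06, with -0.05 without 12 months replicate 2 and with scan day or session as a block) and for 24 against 18 months (0.03, with -0.17 with normexp, 0.18 without 24 months replicate 3 and 0.35 with scan session as a block). Normexp moved the median of all genes at 24 against 3 months to 0.12, against -0.04 in the reported fit, and there the median of the members was -0.42. Signal over background limits Psma8 and Psmb11, not well above background on any array. Over the alternatives, counts over all genes ran 311 to 4478 for 24 against 3 (reported 2857), 264 to 10089 for 18 against 3 (reported 4996), 455 to 8555 for 12 against 3 (reported 2305), 340 to 4125 for 9 against 3 (reported 1103), 166 to 7403 for 12 against 9 (reported 1348), 0 to 724 for 18 against 12 (reported 298), 971 to 7030 for 24 against 18 (reported 5546) and 1619 to 10595 for any age difference (reported 8038).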
